A study of Mus musculus with 10 samples.

Results

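Neutrophils carry ready-made proteases and antimicrobial proteins in granules, and the transcripts of 10 granule proteins were followed across neutrophils from grafted mouse tumours. The genes were taken by name in 3 granule classes. The azurophil class held Mpo, Elane, Prtn3 and Ctsg, the specific class Ltf, Camp, Ngp and Lcn2, and the gelatinase class Mmp8 and Mmp9. They are 10 of the 55385 mouse genes in the deposited count table, and the rule that picks them uses their names alone. Of the 10, 9 had enough reads to be among the 29648 genes tested, and Elane did not.

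The classes are filled in turn as a neutrophil matures in the bone marrow. Azurophil proteins are made first, at the promyelocyte stage, specific granule proteins next, in myelocytes and metamyelocytes, and gelatinase granule proteins last, in band cells. The proteins then persist in the granules, whereas most of the azurophil transcripts are already low when the cell leaves the marrow. In the mature cell the order of release runs the other way, with gelatinase granules released most readily.

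Tumours were squamous cell carcinomas (SCC) grown by grafting either parental Sox2low cells, here called control, or Sox2Hi cells, which have high Sox2, a transcription factor of stem cells. All hosts were CatchupIVM-red mice, in which a red fluorescent Tomato protein marks cells that have used the neutrophil gene Ly6g, and Tomato-positive neutrophils were isolated from the tumours for bulk RNA sequencing. Tumours were left untreated (naive) or were treated, once established, with an anti-PDL1/CD40 agonist combination, an immunotherapy. There were 3 naive control, 2 treated control, 3 naive Sox2Hi and 2 treated Sox2Hi libraries. The sample descriptions of all groups begin with C57, and they mark the control graft with GFP and the other with Sox2. Host age and sex, dose, time after treatment and the number of tumour clones are not given in the sources used here. Nor do the labels say that replicates came from separate animals, so p-values measure only the spread between these libraries. The study's question is whether tumour Sox2 alters how neutrophils respond to interferons, and granule genes are followed here within that design.

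Total counts ran from 13815734 to 22986193 per library. Levels are counts per 1000000 counts (CPM) scaled by normalization factors from genes of at least 5 CPM. All 8 neutrophil marker genes had reads in all 10 libraries, with S100a9 at 676 to 8157 CPM and Ly6g at 1.63 to 18.4 CPM, and the Tomato sequence stood at 8.82 to 31.0 CPM. Markers of other cells were present too, and no gene of any marker list was at 0 in any library. Over the 10 libraries the 6 keratinocyte and tumour markers summed to between 424 and 1627 CPM, the 5 fibroblast markers to between 78.2 and 682 CPM and the 8 macrophage and monocyte markers to between 628 and 1671 CPM. Reads were also found over 1466 olfactory and vomeronasal receptor genes, taken as silent, and this rate extended to all genes equalled 1.58% and 1.74% of counts in treated control and 3.63% to 8.39% in the other libraries. In a bulk library, fewer cells of a type and less RNA per cell cannot be told apart.

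Treatment of control tumours went with higher levels of all 4 specific and both gelatinase granule genes. Of the 9 members tested, 7 rose and none fell (by edgeR's quasi-likelihood test at an adjusted p-value below 0.05), and the 2 not called were Mpo and Ctsg. Of all 29648 genes, 48.6% were called in this comparison, 12.5% higher and 36.1% lower. The background depended on level. Of genes at 100 CPM or more on average, 59.7% were called higher, and of those between 10 and 100 CPM, 30.7%. The median log2 fold change was 3.20 in the specific class, 2.09 in the gelatinase class and -0.41 over the 3 azurophil genes tested, against -0.72 over all genes tested. The azurophil median changed sign with the processing, to 1.37 with the rate over the silent genes subtracted, 0.22 with DESeq2 and 0.059 with normalization over all genes, so no direction is read from it. Of the genes called, 25.7% were higher, and 55.0% were higher where normalization factors came from all genes, which moved the median of all genes to -0.30.

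**Figure D1:**
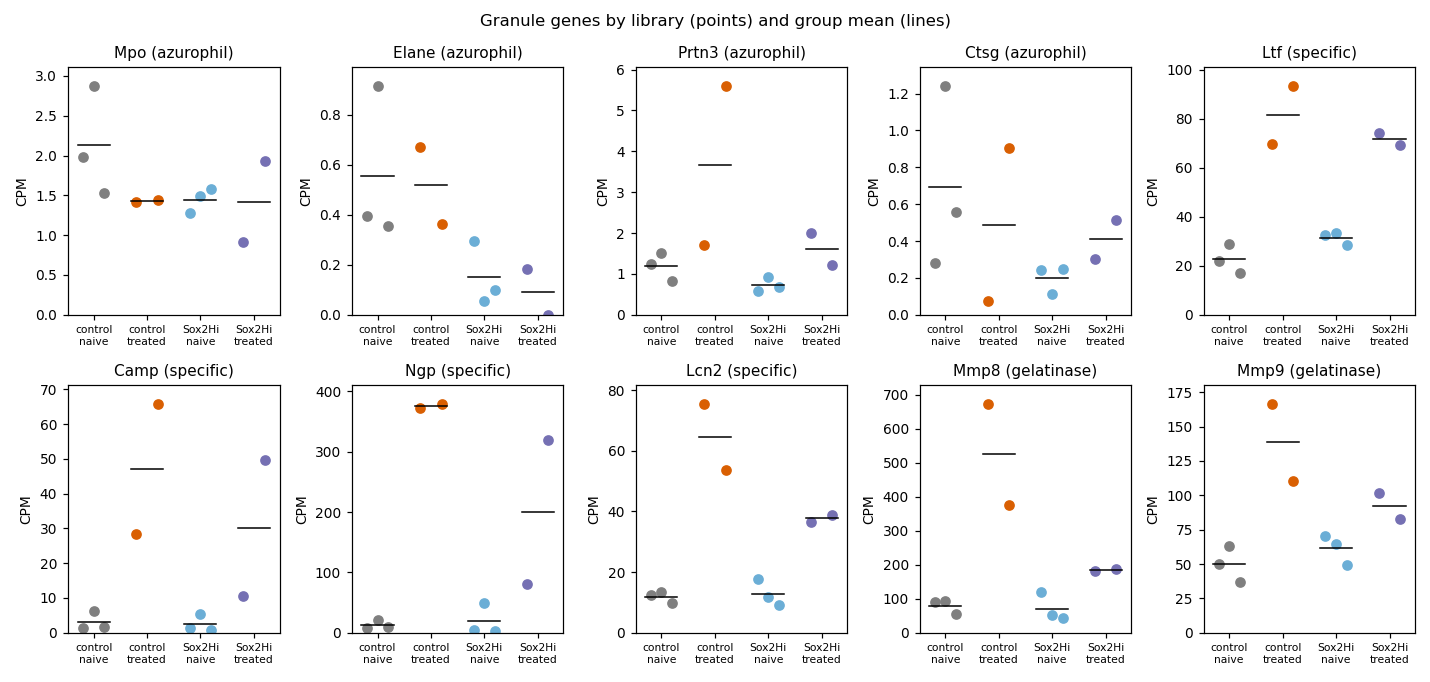
Level of each of the 10 granule genes in CPM (linear axes starting at 0, one panel per gene with its own scale) in the 10 libraries, as points, by graft and treatment, with lines at the group means. The specific and gelatinase genes stand higher in all treated than in all naive libraries of either graft, while Mpo, Elane and Ctsg stay under 3 CPM and Prtn3 has its highest level in control treated replicate 2, at 5.60 CPM.

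Ngp (ENSMUSG00000032484, chr9:110419747-110423012, plus strand; all gene positions are from GENCODE M21 on GRCm38), which codes for neutrophilic granule protein, a cystatin-like protein of specific granules, had the largest change of the 9 genes tested in control tumours. It stood at 7.07, 21.2 and 9.16 CPM in the naive control libraries and at 372 and 380 CPM in the treated control ones. In Sox2Hi tumours it was 4.71, 50.0 and 2.86 CPM in the naive libraries and 80.8 and 319 CPM in the treated ones. The treated libraries lay above all naive libraries of their own graft, but Sox2Hi naive replicate 2 stood well above the other naive libraries. That library also stood apart in 6 lymphocyte markers, which summed to 3668 CPM there, against 392 and 589 CPM in the other naive Sox2Hi, 151 to 306 CPM in the naive control and 397 to 1204 CPM in the treated libraries. Most of it was the immunoglobulin gene Igkc, at 3008 CPM, which was called higher in Sox2Hi between naive tumours (3.11, SE 0.81, edgeR adjusted p-value 0.046) and lost that call in 13 of 21 alternatives, the fit without this library among them. The part of this in the Ngp value was not tested. Of all genes tested, 16.1% had treated control libraries that all lay above the naive ones, as Ngp did, and 51.4% had them all below. The rise in control tumours was 4.92 on the log2 scale, or 30.2-fold (SE 1.00, edgeR adjusted p-value 0.0031), and 5.52 without control naive replicate 2. Over all fits that left out 1 library it ran from 4.52 to 5.52.

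Camp (ENSMUSG00000038357, chr9:109847379-109849617, minus strand) codes for the cathelicidin precursor, an antimicrobial peptide. Its levels were 1.24, 6.21 and 1.78 CPM in naive control and 28.3 and 65.9 CPM in treated control. They were 1.42, 5.51 and 0.691 CPM in naive Sox2Hi and 10.7 and 49.6 CPM in treated Sox2Hi. As with Ngp, replicate 2 was the highest naive library in both grafts, and no naive library reached a treated one. In control tumours Camp rose by 3.96, or 15.6-fold (SE 0.83, edgeR adjusted p-value 0.0035). The size of this rise rests on single libraries, being 3.24 without control treated replicate 2 and 4.94 without control naive replicate 2.

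Ltf (ENSMUSG00000032496, chr9:111019271-111042767, plus strand) codes for lactoferrin, which binds iron, and Lcn2 (ENSMUSG00000026822, chr2:32384633-32388252, minus strand) for lipocalin 2, which captures bacterial iron carriers. Ltf was at 21.8, 28.9 and 17.0 CPM in naive control and 69.6 and 93.4 CPM in treated control, and at 32.5, 33.2 and 28.5 CPM in naive Sox2Hi and 74.2 and 69.3 CPM in treated Sox2Hi. The treated libraries of both grafts lay close together, and above all naive ones. Lcn2 was at 12.5, 13.4 and 9.67 CPM in naive control and 75.6 and 53.6 CPM in treated control, and at 17.7, 11.9 and 9.13 CPM in naive Sox2Hi and 36.7 and 39.0 CPM in treated Sox2Hi. Its treated control libraries were the highest of the 10. In control tumours Ltf rose by 1.85, or 3.62-fold (SE 0.22, edgeR adjusted p-value 0.00014), and Lcn2 by 2.44, or 5.44-fold (SE 0.26, edgeR adjusted p-value 8.8e-05).

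The gelatinase granule genes code for matrix metalloproteinases, Mmp8 (ENSMUSG00000005800, chr9:7558456-7568485, plus strand) for neutrophil collagenase and Mmp9 (ENSMUSG00000017737, chr2:164940780-164955850, plus strand) for gelatinase B. In human neutrophils the collagenase is assigned to specific granules, and it is kept here in the class named above. Mmp8 was at 89.0, 94.3 and 56.5 CPM in naive control and 674 and 377 CPM in treated control. It was at 119, 52.2 and 42.3 CPM in naive Sox2Hi and 181 and 187 CPM in treated Sox2Hi. Both treated control libraries exceeded both treated Sox2Hi ones, and these exceeded every naive library. Mmp9 was at 50.3, 63.0 and 36.8 CPM in naive control and 167 and 110 CPM in treated control, and at 70.2, 64.8 and 49.4 CPM in naive Sox2Hi and 101 and 82.4 CPM in treated Sox2Hi. It showed the same order of groups over a narrower range. In control tumours Mmp8 rose by 2.72, or 6.58-fold (SE 0.39, edgeR adjusted p-value 0.00051), and Mmp9 by 1.47, or 2.77-fold (SE 0.25, edgeR adjusted p-value 0.0012). The 6 rises of specific and gelatinase genes were called in every alternative that gave a test, with adjusted p-values of at most 0.030.

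The stretches upstream of the start sites of 4 genes are shown because these genes moved together with treatment of control tumours and differ in a motif of the C/EBP factors. Sequences are from a set of RefSeq promoters (GRCm38.p6) that held an entry for 9 of the 10 members and not for Mmp9. They run 5′ to 3′ on the gene's strand, ending before the annotated start. The motif was searched as TTGCNNAA, or TTNNGCAA on the other strand, in the 250 bases before each RefSeq start, and its matches are in capitals.
Ltf (chr9:111019042-111019270, plus strand): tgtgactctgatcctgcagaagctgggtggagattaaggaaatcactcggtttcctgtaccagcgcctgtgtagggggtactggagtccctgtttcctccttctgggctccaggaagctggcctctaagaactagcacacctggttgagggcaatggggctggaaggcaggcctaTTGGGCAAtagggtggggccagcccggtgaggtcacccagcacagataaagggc
Ngp (chr9:110419558-110419746, plus strand): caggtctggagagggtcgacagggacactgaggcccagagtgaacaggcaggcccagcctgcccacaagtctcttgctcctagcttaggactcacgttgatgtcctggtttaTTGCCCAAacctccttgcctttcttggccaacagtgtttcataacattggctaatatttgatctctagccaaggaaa
Camp (chr9:109849618-109849706, minus strand): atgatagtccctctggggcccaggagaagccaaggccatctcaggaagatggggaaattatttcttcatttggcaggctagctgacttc
Mmp8 (chr9:7558179-7558428, plus strand): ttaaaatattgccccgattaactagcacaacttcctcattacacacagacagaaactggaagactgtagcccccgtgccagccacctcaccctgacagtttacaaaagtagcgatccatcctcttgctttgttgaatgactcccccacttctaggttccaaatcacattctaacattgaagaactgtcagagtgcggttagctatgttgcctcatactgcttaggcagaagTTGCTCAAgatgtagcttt
The matches lie at -75 to -68 in Ltf, -138 to -131 in Ngp and -19 to -12 in Mmp8, counted from the RefSeq start. Ngp had a further match at -11 to -4, outside the stretch shown, and Lcn2 one at -216 to -209. The motif was thus found in 4 of the 9 members with an entry, among them 3 of the 4 specific genes and none of the 4 azurophil genes, and in 9.57% of 32817 mouse promoters of the same length. Camp had none in this window. Only the 89 bases before its earliest annotated start are shown, since the other 161 bases searched lie after that start. The same holds for 21 bases in Ltf and for 61 in Ngp, where the further match lies among the 61. A PU.1 motif, searched as GAGGAA or TTCCTC, was found in 7 of the 9, all 4 azurophil genes among them, and in 23.3% of all promoters, and it overlapped no C/EBP match. A match is a stretch of letters and was not tested as a binding site.

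Azurophil transcripts were scarce. Mpo (ENSMUSG00000009350, chr11:87793581-87804413, plus strand) codes for myeloperoxidase, which makes hypochlorous acid. Elane (ENSMUSG00000020125, chr10:79886247-79888215, plus strand) codes for neutrophil elastase and its neighbour Prtn3 (ENSMUSG00000057729, chr10:79874476-79883174, plus strand) for the related serine protease myeloblastin. Ctsg (ENSMUSG00000040314, chr14:56099881-56102574, minus strand) codes for cathepsin G, a serine protease that mast cells also make. Over the 10 libraries the reads per library ran from 15 to 44 for Mpo, 0 to 14 for Elane, 12 to 93 for Prtn3 and 1 to 19 for Ctsg. The silent-gene rate at the exon length of each gene gives 8.61 to 30.4 reads for Mpo, 2.47 to 8.73 for Elane, 4.35 to 15.4 for Prtn3 and 2.60 to 9.16 for Ctsg. Elane had 7, 14 and 7 reads in naive control, 9 and 6 in treated control, 6, 1 and 2 in naive Sox2Hi and 3 and 0 in treated Sox2Hi, where a count of 0 allows up to 3 reads. It was not tested. For Elane and Ctsg, in Sox2Hi tumours, the summed reads of 9 and 12 in the naive libraries were below the expected 14.5 and 15.2, so neither gene was detected above this rate there. Mpo in treated control libraries had 19 and 24 reads where 8.61 and 9.53 were expected.

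**Figure D2:**
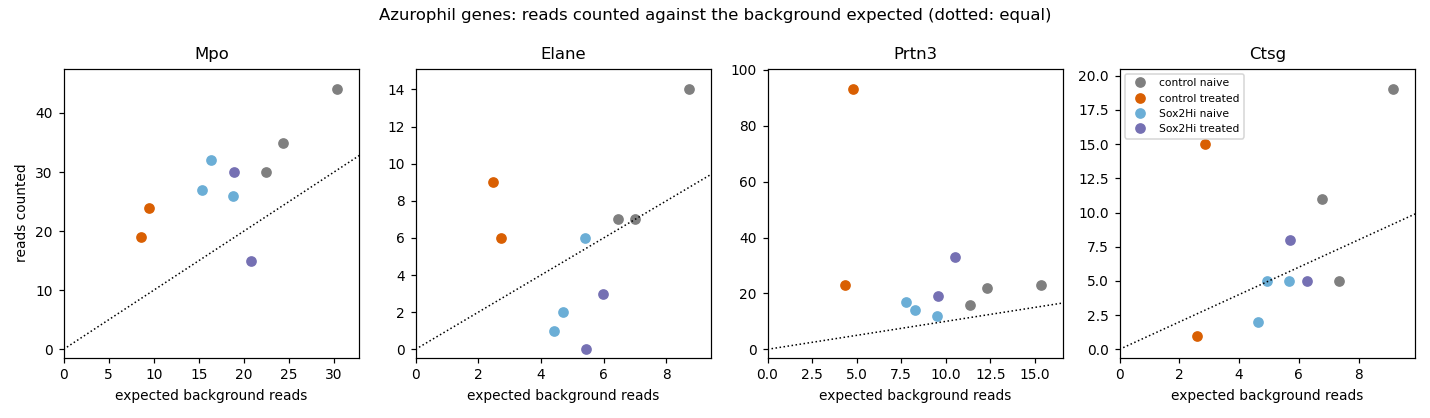
Reads counted (vertical axis) against the reads expected from the silent-gene rate (horizontal axis) for the 4 azurophil genes, with 1 point per library coloured by group and a dotted line where both are equal. The points of Elane and Ctsg in Sox2Hi libraries lie on both sides of the line, and the point farthest above it is Prtn3 in control treated replicate 2, with 93 reads counted and 4.82 expected.

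Mpo was at 1.98, 2.88 and 1.53 CPM in naive control, 1.42 and 1.45 CPM in treated control, 1.28, 1.49 and 1.58 CPM in naive Sox2Hi and 0.909 and 1.93 CPM in treated Sox2Hi. Its log2 fold changes were -0.56 with treatment in control tumours (SE 0.37, edgeR adjusted p-value 0.22) and -0.033 in Sox2Hi tumours (SE 0.37, adjusted p-value 0.96). Ctsg had 5, 19 and 11 reads in naive control, 1 and 15 in treated control, 5, 2 and 5 in naive Sox2Hi and 5 and 8 in treated Sox2Hi. Its log2 fold changes were -0.41 (SE 0.77, edgeR adjusted p-value 0.67) and 0.98 (SE 0.89, adjusted p-value 0.52). Neither gene was called in any comparison. Mpo turned to 0.060 in control tumours with the silent-gene rate subtracted, and Ctsg to 0.059 with normalization over all genes, so no direction is given for either. Mast cell markers, 6 genes, summed to 32.1 to 221 CPM in naive control and 3.36 to 21.8 CPM in treated control, and 5 of the 6 fell there. Their part in the Ctsg values was not tested.

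Prtn3 was the only azurophil gene called. It had 22, 23 and 16 reads in naive control, or 1.24, 1.50 and 0.814 CPM, and 23 and 93 reads in treated control, or 1.72 and 5.60 CPM. In Sox2Hi tumours the naive libraries had 12, 17 and 14 reads and the treated ones 33 and 19. All treated libraries lay above the naive ones of their graft in CPM, as they did for 16.1% of all genes in control and 34.6% in Sox2Hi tumours. Control treated replicate 2 stood apart from all others. Of genes between 1 and 10 CPM on average, as Prtn3 is, 5.7% were called higher in control tumours. The rise in control tumours was 1.65 (SE 0.45, edgeR adjusted p-value 0.012). Without control treated replicate 2 it missed the threshold at 0.56 (edgeR adjusted p-value 0.36).

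In Sox2Hi tumours treatment also went with higher specific granule genes. Here 3 of the 9 members tested rose and none fell, all 3 of them specific, against a background of 5.02% of all genes (3.36% higher, 1.66% lower). Of genes between 10 and 100 CPM, where the 3 lie on average, 7.17% were called higher. Lcn2 rose by 1.55, or 2.92-fold (SE 0.26, edgeR adjusted p-value 0.0079). Ltf rose by 1.19, or 2.29-fold (SE 0.21, edgeR adjusted p-value 0.011). Camp rose by 3.58, or 12.0-fold (SE 0.83, edgeR adjusted p-value 0.031). The median was 2.47 in the specific class, 0.98 in the gelatinase class and 0.98 over the 3 azurophil genes, against 0.27 over all genes tested. Of the genes called, 66.9% were higher, or 49.6% with normalization over all genes. The comparisons of treatment in the 2 grafts share no libraries.

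For Ngp, Mmp8, Mmp9, Prtn3 and Ctsg the treated libraries lay above the naive ones, as they did for 34.6% of all genes tested (14.2% had them all below), but the test was not passed. Ngp had a log2 fold change of 3.39 (SE 0.94, edgeR adjusted p-value 0.059), with Sox2Hi naive replicate 2 at 50.0 CPM beside 4.71 and 2.86 CPM. Without that library it was 5.79 and called (edgeR adjusted p-value 0.0013), and without Sox2Hi treated replicate 2 it was 2.07 and not called (adjusted p-value 0.41). Mmp8 had 1.37 (SE 0.38, edgeR adjusted p-value 0.059) and was called in 9 of 20 alternatives. Among them were the fits without Sox2Hi naive replicate 1 (2.02, edgeR adjusted p-value 0.0049) and without control naive replicate 3 (1.44, adjusted p-value 0.040). Mmp9 had 0.58 (SE 0.25, edgeR adjusted p-value 0.18) and Prtn3 1.13 (SE 0.50, adjusted p-value 0.19).

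These calls rest on few libraries. Without Sox2Hi treated replicate 2 no member was called and 178 genes in all were, against 1488 with it. Lcn2 then had 1.50 (edgeR adjusted p-value 0.069), Ltf 1.23 (adjusted p-value 0.096) and Camp 2.08 (adjusted p-value 0.36), while without Sox2Hi naive replicate 2 Camp had 4.89 and was called. Ltf was also not called without Sox2Hi treated replicate 1 (1.14, edgeR adjusted p-value 0.054), and Camp without Sox2Hi naive replicate 1 (3.36, adjusted p-value 0.071) or replicate 3 (3.20, adjusted p-value 0.11), and with the silent-gene rate subtracted (3.72, adjusted p-value 0.052). Limma-voom called 5 members, all higher, as did the fit of all genes with a count. With the replicate number of the titles as a block 5 were called, Ngp (3.42, edgeR adjusted p-value 0.017) and Mmp8 (1.24, adjusted p-value 0.033) being added. With the numbers of the sample descriptions, which differ for 3 of the 4 treated libraries, 6 were called, Mmp9 (0.70, edgeR adjusted p-value 0.037) among them.

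**Figure D3:**
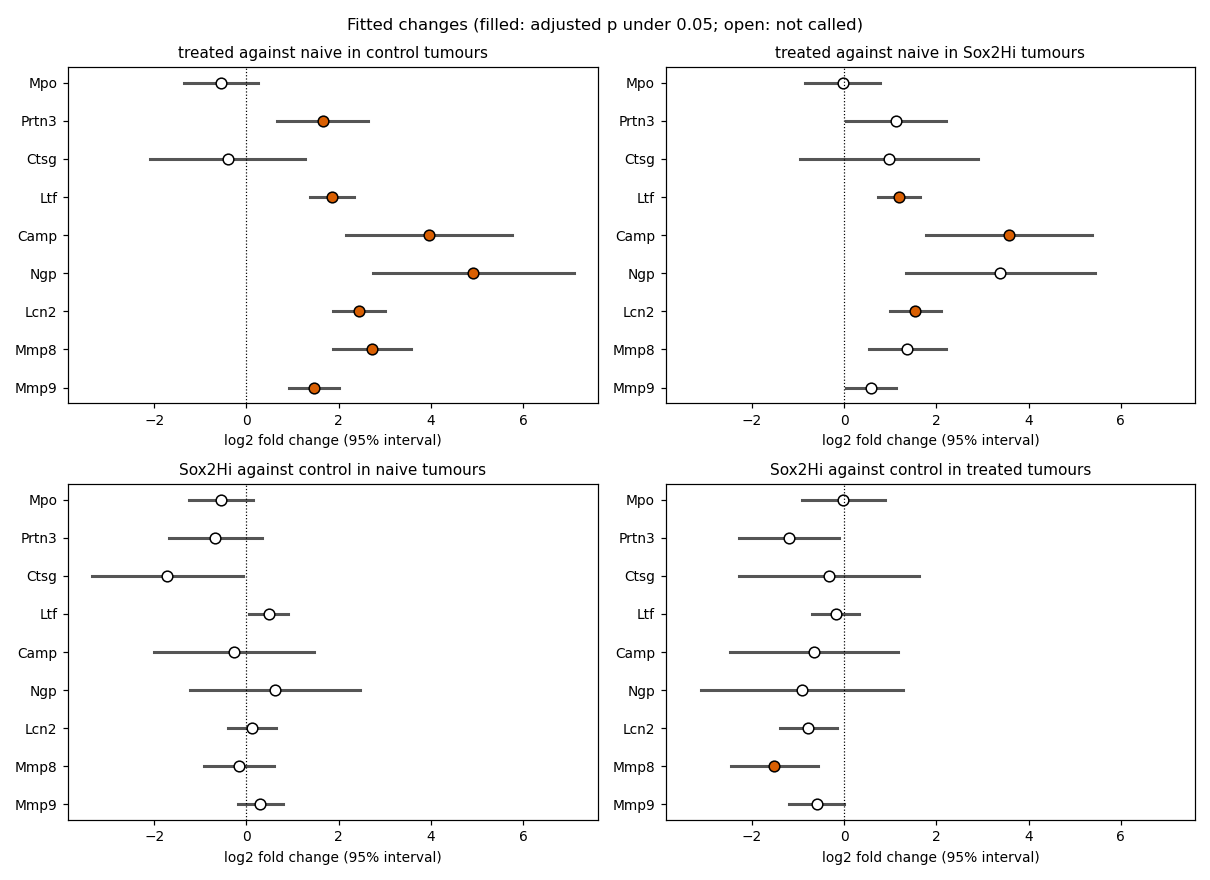
Fitted log2 fold changes (points) with 95% intervals (bars) of the 9 tested granule genes in 4 comparisons, filled where the edgeR adjusted p-value is under 0.05 and open otherwise. In control tumours the intervals of Prtn3 and of all specific and gelatinase genes lie above 0, in naive tumours no point is filled, and between treated grafts the filled point is Mmp8 at -1.51.

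The treatment response of the members was not shown to differ between the grafts. By the interaction term 0 of 9 members were called (edgeR quasi-likelihood test), against a background of 31.2% of all genes (26.8% higher, 4.43% lower). At an unadjusted p-value under 0.05 there were 3 of the 9, Lcn2, Mmp8 and Mmp9, and 13782 of all 29648 genes. The log2 difference of the response was -1.34 for Mmp8 (SE 0.55, edgeR adjusted p-value 0.077). It was -0.90 for Lcn2 (SE 0.37, edgeR adjusted p-value 0.079), -0.89 for Mmp9 (SE 0.35, adjusted p-value 0.071) and -0.66 for Ltf (SE 0.31, adjusted p-value 0.11). The intervals of Ngp (-4.39 to 1.33) and Camp (-2.90 to 2.14) were wide and covered 0. Scaling mattered here. With normalization over all genes, which lowers the median of all genes from 0.85 to 0.22, 4 members were called (Ltf, Lcn2, Mmp8 and Mmp9), all with a smaller response in Sox2Hi, as were 16.2% of all genes. DESeq2, which normalizes over all genes too, called 4, with 22.5% of all genes called lower, and limma-voom 2 (Ltf and Mmp9), with 6.24%. With the replicate block 3 were called by title number (Lcn2 at -0.84, Mmp8 at -1.17 and Mmp9 at -0.89, edgeR adjusted p-values 0.040, 0.036 and 0.031) and 1 by description number (Mmp9 at -0.81, adjusted p-value 0.032). Ltf, Lcn2, Mmp8 and Mmp9 were below 0 in all 20 alternatives. Of the genes called, 85.8% had a higher response in Sox2Hi, or 41.0% with normalization over all genes.

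In naive tumours no member was called between the grafts. The count was 0 of 9 (edgeR quasi-likelihood test), against a background of 5.78% of all genes (0.907% higher, 4.87% lower). Without adjustment 9247 genes were under 0.05. Of the genes called, 15.7% were higher, or 88.8% with normalization over all genes. At an unadjusted p-value under 0.05, 2 members passed, Ltf at 0.48 (SE 0.20, edgeR adjusted p-value 0.13) and Ctsg at -1.71 (SE 0.75, adjusted p-value 0.14). The replicate numbers were taken to pair the naive libraries, from how these same libraries deviated together and not from the labels. With that number as a block and only the 6 naive libraries fitted, Ltf was called, higher in Sox2Hi (0.49, edgeR adjusted p-value 0.035). With the block in the model of all 10 libraries it was 0.50 and not called (adjusted p-value 0.066). DESeq2 called 2 members, Ltf (0.85) and Mmp9 (0.67), and limma-voom called Ltf (0.54). The 95% interval of the difference ran from -0.92 to 0.59 for Mmp8, from -0.39 to 0.64 for Lcn2, from -0.19 to 0.79 for Mmp9, from -2.01 to 1.47 for Camp and from -1.23 to 2.47 for Ngp. The rises seen with treatment of control tumours lay outside each of these intervals.

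Between treated tumours 1 of 9 members was called, Mmp8, lower in Sox2Hi by 1.51 (log2 difference -1.51, SE 0.43, edgeR adjusted p-value 0.042), against a background of 12.9% of all genes (9.58% higher, 3.27% lower). Of the genes called, 74.5% were higher, or 30.4% with normalization over all genes, and of genes at 100 CPM or more, 28.0% were called lower. The 2 libraries of each graft did not overlap in Mmp8, Mmp9, Lcn2 and Ngp, all lower in Sox2Hi, and the same held for 16.3% of all genes tested, while 48.3% were without overlap in the other direction. The log2 differences were -0.77 for Lcn2 (SE 0.28, edgeR adjusted p-value 0.081), -0.59 for Mmp9 (SE 0.27, adjusted p-value 0.14) and -0.91 for Ngp (SE 1.00, adjusted p-value 0.52). The libraries overlapped for Ltf (-0.18), Camp (-0.65) and Prtn3 (-1.19, SE 0.50, edgeR adjusted p-value 0.11). Mmp8 lost its call in 7 of 20 alternatives. These were limma-voom (-1.46, limma-voom adjusted p-value 0.057), subtraction of the silent-gene rate (-1.36, edgeR adjusted p-value 0.14), and the fits without control naive replicate 1 (-1.42, adjusted p-value 0.057), control treated replicate 1 (-1.05, 0.17) or replicate 2 (-1.88, 0.076) and Sox2Hi treated replicate 1 (-1.49, 0.18) or replicate 2 (-1.45, 0.12). Of the 8 neutrophil markers, 5 were also lower in Sox2Hi here, among them S100a9 (-1.47, SE 0.30, edgeR adjusted p-value 0.020), which was not called without any 1 of the 4 treated libraries or with the silent-gene rate subtracted. Called higher in Sox2Hi were the mast cell markers Tpsb2 (3.05) and Cma1 (2.81), Col3a1 of fibroblasts (1.73), Epcam of keratinocytes and tumour (0.77) and the precursor marker Cd34 (1.13). The monocyte gene Ly6c2 was called lower (-1.53). These 6 calls were lost in 4 to 10 of 20 alternatives, and the part of other cells in the Mmp8 value was not tested. With the replicate block by title number Lcn2 was called as well (-0.75, edgeR adjusted p-value 0.037).

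Neutrophil markers moved with the granule genes in both treatment comparisons. All 8 rose in control tumours, from a sum of 3815 to 5934 CPM in the naive libraries to 21579 and 26951 CPM in the treated ones, and S100a9 rose by 2.75 (SE 0.27, edgeR adjusted p-value 5.7e-05). In Sox2Hi tumours 4 of the 8 rose, from a sum of 3334 to 5998 CPM to 9813 and 9890 CPM. Some monocyte markers rose too. Of the 8 macrophage and monocyte markers, 3 rose in control tumours and 1 in Sox2Hi tumours, and none fell. Their sum was 628 to 1014 CPM in naive control and 1103 and 1652 CPM in treated control, without overlap, and 1049 to 1402 CPM in naive Sox2Hi and 790 and 1671 CPM in treated Sox2Hi, with overlap. Ly6c2, a surface protein of monocytes that has a close paralogue and may share reads with it, was at 25.7, 27.8 and 15.3 CPM in naive control and 514 and 361 CPM in treated control. It was at 23.2, 21.5 and 13.1 CPM in naive Sox2Hi and 124 and 178 CPM in treated Sox2Hi. It rose by 4.26 in control tumours (SE 0.31, edgeR adjusted p-value 1.2e-05) and by 2.97 in Sox2Hi tumours (SE 0.30, adjusted p-value 0.00037), and kept both calls in all 20 alternatives. Ccr2, a chemokine receptor of monocytes, rose by 2.14 in control tumours (SE 0.46, edgeR adjusted p-value 0.0040) and had 1.70 in Sox2Hi tumours (SE 0.46, adjusted p-value 0.053). Of the 6 lymphocyte markers 1 rose in each graft, Nkg7, a granule protein of cytotoxic lymphocytes. It rose by 3.12 in control tumours (SE 0.51, edgeR adjusted p-value 0.0011), a call kept in all 20 alternatives, and by 2.46 in Sox2Hi tumours (SE 0.51, adjusted p-value 0.020), a call lost without Sox2Hi naive replicate 3 or either treated library. Of 6 basophil and eosinophil markers 2 fell in control and 3 in Sox2Hi tumours. Mcpt8, a basophil protease, fell by 3.37 and by 3.20 (SE 0.63 and 0.58, edgeR adjusted p-values 0.0020 and 0.011). Prg2, the eosinophil major basic protein, fell by 1.82 and by 3.17 (SE 0.53 and 0.56, edgeR adjusted p-values 0.016 and 0.010). In Sox2Hi tumours both lost the call without treated replicate 1 and Prg2 also without treated replicate 2, and in control tumours Prg2 lost it in 5 of 20 alternatives, among them the fits without either treated library. Of 6 keratinocyte and tumour markers, 3 fell in control tumours (Krt5 by 1.21 and Trp63 by 0.95 among them) and 1 in Sox2Hi tumours (Epcam by 0.82). None rose, and these 3 named calls were lost in 7, 5 and 11 of 20 alternatives. Among all genes, 12.5% were called higher and 36.1% lower in control tumours, and 3.36% and 1.66% in Sox2Hi tumours. The part of these other cells' transcripts in the rise of the members was not tested. All 5 fibroblast markers fell with treatment of control tumours, from a sum of 242 to 682 CPM to 78.2 and 94.6 CPM. None was called in Sox2Hi tumours, though their sum was 464, 428 and 600 CPM in the naive and 290 and 88.8 CPM in the treated libraries, without overlap. The part of the neutrophil share of each library in the rise of the members was not tested as such, but the members can be set against neutrophil transcripts within each library.

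Set against the sum of S100a8 and S100a9, which code for an abundant cytosolic protein pair of neutrophils, the members fell into different patterns. This comparison is a description with no test. Mmp8 was between 2.65% and 3.87% of that sum in all 10 libraries, a 1.46-fold range, although its CPM ranged 15.9-fold. Lcn2 was between 0.377% and 0.653%, a 1.73-fold range against 8.28-fold in CPM. For these 2 genes the naive and treated ranges overlapped. Lcn2 was between 0.574% and 0.653% in the 5 Sox2Hi libraries and between 0.377% and 0.489% in the 5 control libraries, although in CPM its naive libraries overlapped between the grafts. Against the receptor genes given below, the grafts overlapped for Lcn2 in both naive and treated libraries. The share of all genes without overlap was not computed on this scale, so where libraries are said not to overlap on it, this describes the member alone.

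Ngp and Camp did not keep a fixed proportion. Ngp was 0.231%, 0.718% and 0.464% of the S100a8 and S100a9 sum in naive control and 1.99% and 2.67% in treated control, and 0.154%, 2.61% and 0.183% in naive Sox2Hi and 1.26% and 5.35% in treated Sox2Hi. It was thus higher with treatment in every library but for Sox2Hi naive replicate 2, which exceeded 2 of the 4 treated libraries. Camp ranged from 0.0406% to 0.287% in naive libraries and from 0.151% to 0.831% in treated ones. Mmp9 went the other way, from 1.64% to 3.38% in naive libraries to between 0.776% and 1.59% in treated ones, with no overlap. Ltf was 0.713% to 0.977% in naive control and 0.372% and 0.657% in treated control, and 1.06% to 1.82% in naive Sox2Hi and 1.16% in both treated Sox2Hi libraries.

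**Figure D4:**
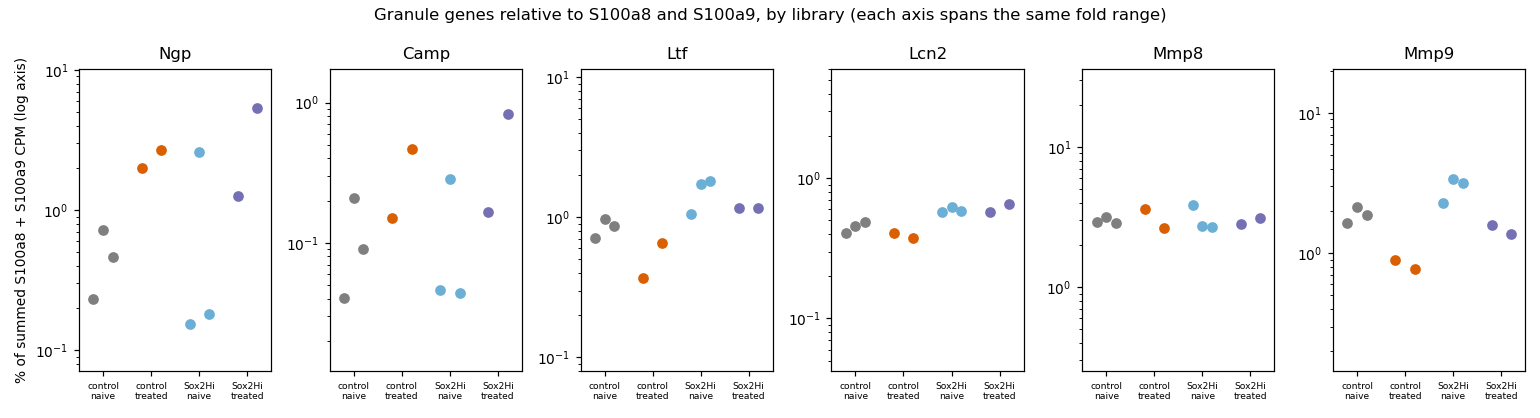
Each of the 6 specific and gelatinase genes as a percent of the summed CPM of S100a8 and S100a9 in the same library (log axes that all span the same fold range), with 1 point per library by group. Mmp8 and Lcn2 span the narrowest ranges, 1.46-fold and 1.73-fold, Mmp9 is lower in treated libraries, and Ngp and Camp spread over a 34.8-fold and a 20.4-fold range.

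The pattern differed with the reference. Against the sum of Csf3r, Cxcr2, Trem1 and Clec4d, surface receptors of neutrophils of which the last pair is also found on monocytes, Mmp8 was 2.54% to 4.34% in naive libraries and 5.72% to 11.3% in treated ones. Lcn2 was 0.475% to 0.648% and 0.865% to 1.30%. Between the grafts Lcn2 overlapped, at 0.475% to 0.558% in naive control and 0.549% to 0.648% in naive Sox2Hi. In treated libraries it was 1.27% and 0.865% in control and 1.30% and 1.19% in Sox2Hi. Mmp8 and Lcn2 were both higher in all treated than in all naive libraries on this scale. The share of all genes without overlap was not computed on this scale either. Ngp was 0.172% to 2.44% and 2.86% to 9.78%, and Camp 0.0416% to 0.269% and 0.378% to 1.52%, again without overlap. Mmp9 (2.00% to 3.17% and 1.78% to 3.59%) overlapped. Ltf overlapped over both grafts together but not within either, at 0.866%, 1.024% and 0.981% in naive and 1.17% and 1.51% in treated control, and 1.19% to 1.72% in naive and 2.63% and 2.12% in treated Sox2Hi. Ngp and Camp were therefore higher with treatment against both references in control tumours, except that for Camp against S100a8 and S100a9 the libraries overlapped.

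Per kilobase of exon, which allows levels of different genes to be compared, the order of the members changed with treatment. In naive control libraries Mmp8 was the most abundant at 33.0 CPM per kb, ahead of Mmp9 at 14.1, Ngp at 10.2 and Ltf at 6.54, with Lcn2 at 4.53 and Camp at 4.06 (means of 3 libraries). In treated control libraries Ngp led at 308 CPM per kb, ahead of Mmp8 at 217, Camp at 62.1 and Mmp9 at 39.1, with Lcn2 at 24.6 and Ltf at 23.6 (means of 2 libraries). Ngp and Mmp8 were also the leading pair in treated Sox2Hi, at 164 and 75.9 CPM per kb. The spread of Mmp8 (155 and 278 CPM per kb) did not reach Ngp (305 and 311 CPM per kb) in treated control, whereas in treated Sox2Hi Ngp at 66.1 and 261 spanned Mmp8 at 74.8 and 77.0.

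The specific class accounted for 33.1% ± 6.70 of the summed CPM per kb of the 10 genes in naive control (SD, n = 3) and 62.2% ± 10.9 in treated control (SD, n = 2). It was 38.6% ± 19.3 in naive Sox2Hi (SD, n = 3) and 65.2% ± 18.1 in treated Sox2Hi (SD, n = 2). The gelatinase class held 63.5% ± 7.25, 37.3% ± 11.3, 59.8% ± 18.9 and 34.2% ± 17.8 in the same groups. In control tumours the shares of the classes did not overlap between naive and treated libraries. Ngp carried this shift, since without it the specific share was 19.4%, 26.4% and 23.6% in naive and 20.9% and 41.2% in treated control libraries, which overlap. In Sox2Hi tumours the specific and gelatinase shares did, since naive replicate 2, the library with the high lymphocyte markers, had 60.3% specific beside 23.8% and 31.5% in the other naive libraries, and treated libraries had 52.3% and 78.0%. The azurophil share did not overlap there either, at 1.36%, 1.10% and 2.52% in naive and 0.859% and 0.381% in treated Sox2Hi libraries. The lower share goes with a higher sum of the other classes, since the summed azurophil CPM averaged 2.54 in naive and 3.53 in treated Sox2Hi and 4.56 and 6.10 in control, and much of it was at the silent-gene rate. The group means of the share were 3.33% ± 0.549, 0.535% ± 0.331, 1.66% ± 0.756 and 0.620% ± 0.338.

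**Figure D5:**
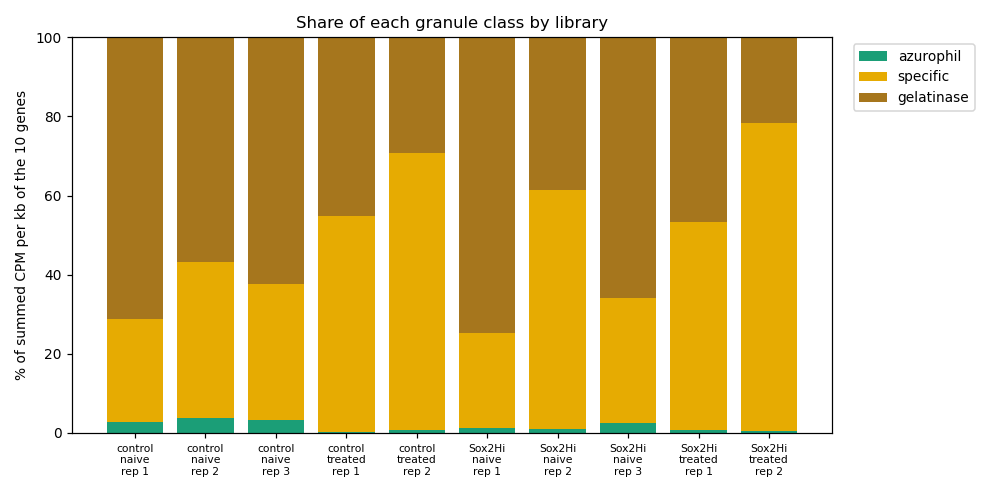
Share of the azurophil, specific and gelatinase classes in the summed CPM per kb of the 10 genes, as stacked bars from 0 to 100%, for each of the 10 libraries. The specific share is above 50% in the 4 treated libraries and in Sox2Hi naive replicate 2, and between 23.8% and 39.2% in the other naive libraries.

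Libraries also split by Ddx3y, a gene of the Y chromosome, with at most 8 reads in 4 libraries and at least 1007 in 6, and each group had both kinds. Within the low libraries Ngp was 4.71 and 7.07 CPM in the naive and 319 and 372 CPM in the treated ones, and within the high libraries 2.86 to 50.0 and 80.8 to 380 CPM. The other 5 specific and gelatinase genes also showed no overlap between naive and treated libraries in either kind, with the treated ones above, as did 7.05% of all genes tested. With this split as a term the counts of members called were 7, 4, 0, 1 and 0 in the order of comparisons above (control treatment, Sox2Hi treatment, naive grafts, treated grafts, interaction), the added call being Mmp8 in Sox2Hi tumours, against 46.0%, 4.13%, 2.58%, 10.3% and 29.1% of all genes.

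Other granule genes, listed by class with earlier results of these data known, were counted beside the members. Of 8 further specific granule genes, all 8 rose with treatment of control tumours (median 2.13) and 5 in Sox2Hi tumours (median 1.15). The shares of all genes called higher were 12.5% and 3.36% in the same order, or 59.7% and 16% at 100 CPM or more. Between 10 and 100 CPM they were 30.7% and 7.17%. Chil3, a chitinase-like lectin, rose by 3.60 (SE 0.45, edgeR adjusted p-value 0.00022) and by 3.17 (SE 0.44, adjusted p-value 0.0025) in the same order. Pglyrp1, which binds bacterial peptidoglycan, rose by 2.66 in control tumours (SE 0.26, edgeR adjusted p-value 4.7e-05), and Cybb, the catalytic subunit of the oxidase that makes superoxide, by 1.74 in Sox2Hi tumours (SE 0.33, adjusted p-value 0.014). Cybb was not called without Sox2Hi naive replicate 3 or Sox2Hi treated replicate 2.

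Of 9 further gelatinase granule and secretory vesicle genes, 7 rose and 1 fell in control tumours (median 1.20), and 3 rose in Sox2Hi tumours (median 0.82). Among all genes, 12.5% were called higher and 36.1% lower in control tumours, and 3.36% higher in Sox2Hi tumours. The formyl peptide receptor genes Fpr1 and Fpr2, which sense bacterial and mitochondrial peptides, rose by 2.73 and 2.04 in control tumours (SE 0.25 and 0.22, edgeR adjusted p-values 3.6e-05 and 9.7e-05) and by 1.17 and 1.20 in Sox2Hi tumours (SE 0.25 and 0.22, adjusted p-values 0.021 and 0.012). In Sox2Hi tumours both lost the call without treated replicate 2, and Fpr1 also without treated replicate 1 or naive replicate 3. Alpl, the alkaline phosphatase of secretory vesicles, fell by 0.77 in control tumours (SE 0.26, edgeR adjusted p-value 0.029) and lost the call in 7 of 19 alternatives, among them the fits without either treated control library or without control naive replicate 2.

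Of 8 further azurophil genes, 2 rose and 1 fell in control tumours (median 0.059), and 1 rose and 1 fell in Sox2Hi tumours (median 0.36). Among all genes, 12.5% were called higher and 36.1% lower in control tumours, and 3.36% and 1.66% in Sox2Hi tumours. Ctsc, the dipeptidyl peptidase that activates the azurophil serine proteases, rose by 2.05 in control tumours (SE 0.28, edgeR adjusted p-value 0.00035) and by 1.24 in Sox2Hi tumours (SE 0.27, adjusted p-value 0.026). The latter was lost in 6 of 20 alternatives, which were both replicate blocks, normalization over all genes and the fits without Sox2Hi naive replicate 2 or 3 or Sox2Hi treated replicate 2. Srgn, the proteoglycan that packs granule proteases, rose by 1.01 in control tumours (SE 0.26, edgeR adjusted p-value 0.0086) but was not called without control treated replicate 2 or with the silent-gene rate subtracted. Bpi, a protein that permeabilizes bacteria, fell by 1.22 (SE 0.44, edgeR adjusted p-value 0.038), at 5 to 22 reads per library in control tumours, and lost the call in 10 of 19 alternatives, subtraction of the silent-gene rate among them. That rate gives 43.4 reads where 57 were counted over the naive control libraries and 10.2 where 14 were counted over the treated ones, so Bpi was close to it in both groups and the rate itself was lower in the treated ones. Cd63, a membrane protein of azurophil granules and lysosomes, fell by 0.89 in Sox2Hi tumours (SE 0.17, edgeR adjusted p-value 0.016) and was not called without either treated library or naive replicate 3.

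Of 7 regulators of granule genes, 5 rose and 1 was called lower with treatment of control tumours. In that comparison 12.5% of all genes were called higher and 36.1% lower, and 30.7% of those between 10 and 100 CPM higher. Cebpe, the C/EBP factor needed for specific granules, stood at 3.90, 10.8 and 7.23 CPM in the naive and 19.6 and 22.5 CPM in the treated libraries. It was without overlap, as were 16.1% of all genes with the treated libraries higher, and rose by 1.53 (SE 0.37, edgeR adjusted p-value 0.0068). Spi1, which codes for the myeloid factor PU.1, rose by 1.84 (SE 0.33, edgeR adjusted p-value 0.0015), and both kept the call in all 20 alternatives. Gfi1, a repressor that supports granulocyte development, had a log2 fold change of -2.25 (SE 0.53, edgeR adjusted p-value 0.0062), with 10 to 22 reads in the naive and 2 and 4 in the treated libraries. Its summed reads, 52 and 6, were below the 71.8 and 16.9 that the silent-gene rate gives, so it was not detected above this rate in either group and no direction is read from its call. In Sox2Hi tumours, where 3.36% of all genes were called higher, 1 of the 7 was called, Cebpb, higher by 0.85 (SE 0.22, edgeR adjusted p-value 0.045). Cebpb lost the call in 10 of 20 alternatives, 7 of which left out 1 library.

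Cebpe was at 20.3, 15.2 and 12.8 CPM in naive Sox2Hi and 9.64 and 18.8 CPM in treated Sox2Hi, so that the groups overlapped. By the interaction term its response was lower in Sox2Hi (-1.71, SE 0.53, edgeR adjusted p-value 0.030), as was that of Spi1 (-1.38, SE 0.47, adjusted p-value 0.042). Cebpe lost that call in 10 and Spi1 in 13 of 20 alternatives, single libraries left out among them. The responses of 2 of 8 neutrophil markers (Retnlg -1.50, S100a9 -1.20) and of Ly6c2 (-1.28) were called lower too, and lost the call in 9 to 11 of 20 alternatives. Responses of 2 of 6 mast cell markers (Cma1 3.64, Tpsb2 3.07) and 3 of 6 precursor and cycling markers were called higher. Tpsb2 lost that call in 11 and Cma1 in 5 of 20 alternatives. Of the further specific granule genes 4 of 8 had a lower response in Sox2Hi, where 4.43% of all genes were called in that direction. Level matters for this background too, since 31.3% of genes at 100 CPM or more and 11% of those between 10 and 100 CPM were called lower, and with normalization over all genes 16.2% of all genes were. Among the 4 were Cd177, a surface protein of a subset of neutrophils (-1.90, SE 0.44, edgeR adjusted p-value 0.011), and Olfm4, an olfactomedin of specific granules (-1.23, SE 0.32, adjusted p-value 0.016). Cd177 lost the call without Sox2Hi treated replicate 1, and Olfm4 without that library, without Sox2Hi naive replicate 1 or with the silent-gene rate subtracted.

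In naive tumours Cd177 was the only gene of the granule, regulator and inhibitor lists called between the grafts, higher in Sox2Hi by 1.44 (SE 0.28, edgeR adjusted p-value 0.038). It stood at 6.44, 9.41 and 5.55 CPM in naive control and 17.9, 23.7 and 16.4 CPM in naive Sox2Hi, without overlap, as were 7.41% of all genes with Sox2Hi higher and 30.1% with Sox2Hi lower. It lost the call in 9 of 21 alternatives, among them the fits without any 1 of the 5 Sox2Hi libraries or without control naive replicate 1 or 2. In treated tumours Pglyrp1 (-1.20, SE 0.28, edgeR adjusted p-value 0.026) and Olfm4 (-0.97, SE 0.25, adjusted p-value 0.031) were lower in Sox2Hi, as were Fpr1 (-1.56, SE 0.28, adjusted p-value 0.015) and Fpr2 (-1.15, SE 0.25, adjusted p-value 0.022). Of these 4, only Fpr1 kept the call without control treated replicate 1, and none did without control treated replicate 2 or either treated Sox2Hi library. With the silent-gene rate subtracted, too, only Fpr1 kept it.

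Of 5 inhibitors of granule proteases, Slpi rose and Timp1 and Serpinb6a fell with treatment of control tumours, where 12.5% of all genes were called higher and 36.1% lower. Slpi, an inhibitor of elastase and cathepsin G, rose by 2.03 (SE 0.25, edgeR adjusted p-value 0.00021). Timp1, an inhibitor of Mmp9, fell by 1.78 (SE 0.29, edgeR adjusted p-value 0.00091), and by 1.41 in Sox2Hi tumours (SE 0.28, adjusted p-value 0.017), where it was not called without either treated library or naive replicate 3. Serpinb6a, which inhibits cathepsin G, fell by 0.82 (SE 0.26, edgeR adjusted p-value 0.021) and was not called without either treated control library, with normalization over all genes or by DESeq2. Fibroblasts also make Timp1, and their markers fell as given above. Their part in its fall was not tested.

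Precursor and cycling markers were set beside the specific granule genes, since granule genes are transcribed in marrow precursors. The list is not particular to neutrophils, and the part of neutrophil precursors in its values was not tested. Of 6 such markers, 1 rose and 4 fell in control tumours, and 1 rose and 2 fell in Sox2Hi tumours. Among all genes, 12.5% were called higher and 36.1% lower in the former, and 3.36% and 1.66% in the latter. The sum of the 6 markers was 153 to 220 CPM in naive control and 99.2 and 110 CPM in treated control, and 167 to 204 CPM in naive Sox2Hi and 94.7 and 112 CPM in treated Sox2Hi. Cdk1, which drives entry into mitosis, fell by 1.44 (SE 0.25, edgeR adjusted p-value 0.0014) and by 1.49 (SE 0.25, adjusted p-value 0.0080), and Top2a, a topoisomerase of dividing cells, by 1.13 (SE 0.25, adjusted p-value 0.0043) and by 1.30 (SE 0.25, adjusted p-value 0.014). In Sox2Hi tumours neither was called without treated replicate 2, nor was Top2a without treated replicate 1 or naive replicate 3. In control tumours Top2a was not called without control treated replicate 2, with normalization over all genes or by DESeq2. Kit, a receptor of progenitors and mast cells, rose by 0.70 (SE 0.24, edgeR adjusted p-value 0.029) and by 1.67 (SE 0.24, adjusted p-value 0.0027), the former lost in 10 of 19 alternatives, among them the fits without any 1 of the 5 control or the 3 naive Sox2Hi libraries. Kit was close to the silent-gene rate in naive libraries, with 219 reads where 201 were expected in control and 148 where 131 were expected in Sox2Hi, and its values ran up to 2.48 and 4.17 over the alternatives, so the size of its rises is uncertain.

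The genes other than the members whose centred log2(CPM + 1) over the 10 libraries was closest to the mean of each class were found among 9808 genes averaging 5 CPM or more. This is a description with no test. For the specific class they were Ccl5, a chemokine (root-mean-square difference 0.29), Plac8 (0.31) and Ifi47, an interferon-induced GTPase (0.31). Ifi47 had mean levels of 333 CPM in naive control, 2629.9 in treated control, 229 in naive Sox2Hi and 1384 in treated Sox2Hi. For the gelatinase class they were Hp, or haptoglobin (0.12), Msrb1, a methionine sulfoxide reductase (0.13), and Slc40a1, the iron exporter ferroportin (0.14). Hp is itself one of the further specific granule genes, with 136, 612, 148 and 333 CPM in the same order of groups. For the azurophil class, whose levels were near the silent-gene rate, they were Nsmaf (0.066), Atp13a2 (0.10) and Tmed7 (0.12).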

How the data were processed

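Bulk RNA sequencing of Tomato-positive neutrophils gave 10 libraries in 4 groups (3, 2, 3 and 2). RNA was isolated with a Zymo Quick-RNA Microprep kit and libraries were made with a NEBNext Single Cell/Low Input kit, per the labels' protocols. The deposited table holds estimated counts per gene, made by the authors, as whole numbers. Kallisto 0.44.0 and mm10 are named in the submitters' processing notes, without a role. Whether counting used strand is not given in the sources used here, so reads of overlapping antisense genes cannot be told apart. Of 55481 entries in the table, 96 name no mouse gene (0.000992% to 0.00277% of counts) and were left out of library sizes and tests, and 55144 of 55385 gene identifiers matched GENCODE M21 (GRCm38).

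The test was edgeR's quasi-likelihood test (edgeR 4.0.16, R 4.3.3) over 29648 genes passing its filter on low counts, with 1 model of 4 groups, TMM factors from 11290 genes averaging 5 CPM or more, and Benjamini-Hochberg adjustment over all genes. A gene was called at an adjusted p-value under 0.05. SE was taken as the size of the log2 fold change over the root of its F statistic. The common biological coefficient of variation was 0.235. On counts simulated for treatment of control tumours (28283 genes, 50 changed at each size) the test found 90% of 4-fold rises but 12% of 2-fold rises, and 72% and 6% of falls of the same sizes. The simulation left all other genes unchanged, whereas 48.6% of genes were called in the data. The adjustment was therefore stricter in the simulation, and these shares do not give the power of the test in the data. The silent-gene rate is the median count per kilobase of exon over 1466 olfactory and vomeronasal genes.

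Alternatives were TMM factors from all genes, RLE factors, DESeq2 (1.42.0), limma-voom (limma 3.58.1), other filters, subtraction of the silent-gene rate, replicate blocks and leaving out each library. Same-numbered naive libraries deviated together (r = 0.271, 0.337 and 0.478 over 11148 genes), so the numbers were taken to pair the naive libraries. This rests on the data and not on the labels, which leave the meaning of the number open. Same-numbered naive libraries were also alike in the Ddx3y split, and the part of that split in these correlations was not tested. No pair of replicates agreed within sampling noise (chi-square per degree of freedom at least 12.5).

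The members and lists were chosen with earlier results of these data known, and 1 gene of the further azurophil list is not reported here. All members are named, and from each other list at most the 2 largest rises and 2 largest falls called in a comparison, and for each class the 3 genes of most similar pattern. S100a8, Csf3r, Cxcr2, Trem1 and Clec4d were named as reference genes, and Hp, Ly6g and Ddx3y beside them.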

Additional observations from a re-analysis of the deposited data

Results flagged for a closer look

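Beyond the 10 members, 11 genes of the granule, regulator and inhibitor lists had a treatment response that differed between the grafts by the interaction term (edgeR quasi-likelihood test, adjusted over all genes), and the 8 that the naming rule takes, at most the 2 highest and 2 lowest of a list, are given. Of all genes, 31.2% were called (26.8% higher, 4.43% lower). Of genes at 1 to 10 CPM, 38.0% were called higher, of those between 10 and 100 CPM, 11% were called lower, and of those at 100 CPM or more, 31.3% were. Calls of single genes are therefore common in this comparison, and markers of neutrophils and of other cells were among them, as given above. These are values from 2 or 3 libraries per group. The log2 difference of the response, Sox2Hi less control, was 1.91 for Ms4a3 (SE 0.52, edgeR adjusted p-value 0.019), a membrane protein of granulocyte precursors. Its reads were few, at 78 and 25 in naive and treated control and 45 and 51 in naive and treated Sox2Hi, where the silent-gene rate gives 42.5, 9.98, 27.8 and 21.8, and its call was lost with that rate subtracted. The difference was -1.90 for Cd177 (SE 0.44, edgeR adjusted p-value 0.011), -1.23 for Olfm4 (SE 0.32, adjusted p-value 0.016) and -1.56 for Fpr1 (SE 0.35, adjusted p-value 0.010). It was -0.98 for Adam8, a membrane metalloprotease (SE 0.34, edgeR adjusted p-value 0.047). It was -1.71 for Cebpe (SE 0.53, edgeR adjusted p-value 0.030), -1.38 for Spi1 (SE 0.47, adjusted p-value 0.042) and -1.19 for Slpi (SE 0.36, adjusted p-value 0.029). Cd177 lost its call in 1 of 20 alternatives, without Sox2Hi treated replicate 1 (edgeR adjusted p-value 0.055), and Fpr1 in 1, with the silent-gene rate subtracted (adjusted p-value 0.073). Olfm4 lost it in 3 of 20, Ms4a3 in 5 of 19, Slpi in 7, Cebpe in 10, Spi1 in 13 and Adam8 in 14 of 20. Cd177 was called higher with treatment in control tumours (1.30, SE 0.31, edgeR adjusted p-value 0.0066) and had -0.60 in Sox2Hi tumours, not called (SE 0.31, adjusted p-value 0.26). It was at 6.44, 9.41 and 5.55 CPM in control naive and 23.2 and 11.9 CPM in control treated, but at 17.9, 23.7 and 16.4 CPM in Sox2Hi naive and 10.4 and 15.0 CPM in Sox2Hi treated. All treated libraries were above the naive ones in control tumours and below them in Sox2Hi tumours. Of all genes, 16.1% had the former and 14.2% the latter.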

How the results depend on the processing

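The rises of the 4 specific and 2 gelatinase genes with treatment of control tumours kept their call in all alternatives that gave a test (20 each, 19 for Ngp). The other comparisons depended more on the processing, and the cause was not tested. The counts of members called between naive grafts, 0, became 2 with DESeq2, 1 with limma-voom and 1 with the replicate block in the naive libraries alone, a fit added after seeing the data, as was the Ddx3y term. Between treated grafts the count of 1 became 5 with DESeq2, 3 with all-gene factors, and 0 with limma-voom or the silent-gene rate subtracted. For the interaction the count of 0 became 4 with DESeq2 or all-gene factors and 2 with limma-voom. In Sox2Hi treatment the count of 3 became 5 with limma-voom, all genes with a count or genes of at least 5 CPM. The replicate block gave 5 by title and 6 by description number in Sox2Hi treatment, 2 by title number between treated grafts, and 3 by title and 1 by description number for the interaction. It changed no other count of members. DESeq2 gave no adjusted p-value for some members, Ngp and Ctsg among them.

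Signs turned in single genes. With DESeq2 the log2 values were 0.13 for Camp and 0.19 for Mmp8 between naive grafts, -0.33 for Mpo in the interaction and 0.067 for Mpo in control treatment. With all-gene factors they were 0.050 for Camp and 0.12 for Mmp8 between naive grafts, -0.12 for Mpo in the interaction and 0.059 for Ctsg in control treatment. With limma-voom they were 0.46 for Camp between naive grafts and 0.25 for Ctsg between treated grafts. With the silent-gene rate subtracted Mpo was -0.77 in the interaction and 0.060 in control treatment. With the replicate block Ngp between naive grafts was -0.0728 by title number and -0.23 in the naive libraries alone, and by description number Camp was 0.12 in the interaction and Mpo 0.20 between treated grafts and 0.050 in Sox2Hi treatment.

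The azurophil median moved between naive grafts to -0.31 with DESeq2, -0.37 with all-gene factors and -0.44 with the silent-gene rate subtracted. Between treated grafts it moved to -0.80, -0.69 and -1.34 in the same order, and with the replicate block to -0.047 by description and -0.11 by title number. In the interaction it was -0.33, -0.12 and -0.89 in that order. In Sox2Hi treatment it was 0.47 with the rate subtracted. In control treatment it was 0.22, 0.059 and 1.37 in that order, -0.0435 with limma-voom and -0.68 with the replicate block by description number. The gelatinase median was -1.52 between treated grafts with DESeq2, -1.95 with DESeq2 and -1.73 with all-gene factors in the interaction, and 2.71 and 2.52 in control treatment. The specific median was -1.62 and -1.41 in the interaction, in the same order, and 3.84 in control treatment with DESeq2.

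Leaving out 1 library at a time assumes, where 1 library of a group remains, that it varies like the other groups. In control treatment Ctsg then ran from -3.06 to 0.42 and the azurophil median from -0.72 to 0.42. In Sox2Hi treatment the count ran from 0 to 4, Mpo from -0.68 to 0.42, and the azurophil, specific and gelatinase medians from 0.55 to 1.16, 1.78 to 3.22 and 0.85 to 1.38. Between naive grafts Camp ran from -1.59 to 0.71, Ngp from -1.79 to 1.23, Lcn2 from -0.25 to 0.23 and Mmp8 from -0.84 to 0.0036, and the 3 medians from -0.98 to -0.48, -0.75 to 0.70 and -0.36 to 0.23. Between treated grafts the count ran from 0 to 1, Mpo from -0.58 to 0.43, Ctsg from -1.15 to 2.33, Ltf from -0.39 to 0.033 and Camp from -2.09 to 0.079, and the azurophil and specific medians from -1.15 to 0.011 and -1.41 to -0.23. In the interaction the count ran from 0 to 2, Mpo from -0.027 to 0.98, Prtn3 from -1.14 to 0.57, Camp from -1.80 to 1.05 and Ngp from -2.75 to 1.00, and the 3 medians from -0.027 to 0.98, -1.33 to 0.28 and -1.45 to -0.58.

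Over all genes, the 14404 called in control treatment became 7721 with DESeq2, 6462 at 5 CPM or more and 6685 with the rate subtracted. The 1488 in Sox2Hi treatment became 3353 with DESeq2, 3524 with limma-voom and 2440 at 5 CPM or more. The 1714 between naive grafts became 554 with all-gene factors, 13 with RLE factors, 4114 with DESeq2, 9386 with limma-voom, 795 with the block by description number, 5399 with the block in the naive libraries alone, 766 with the Ddx3y term and 1 with the rate subtracted. The 3811 between treated grafts became 2426 with RLE factors, 2203 with limma-voom, 2353 at 5 CPM or more, 2513 with the block by description number and 563 with the rate subtracted. The 9256 of the interaction became 2233 at 5 CPM or more and 1654 with the rate subtracted. Without single libraries the 5 counts ran from 7668 to 15752, 178 to 2637, 3 to 6239, 81 to 6107 and 3769 to 11426. With DESeq2 the share of higher calls was 82.2%, 29.4%, 89.8%, 10.8% and 15.1% in the same order.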
